A study of Mus musculus with 26 samples.

Results

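The sperm of transplanted founder males (SSCT F0) was compared with the sperm of control founder males (control F0), 3 mice in each group and 6 of the 26 mice of the study. Members were chosen by their labels alone: SSCT F0 replicates 1 to 3 and control F0 replicates 1 to 3. The SSCT F0 mice were sterile W/W-v males (of the WBB6F1/J strain) whose testes had received spermatogonial stem cells, taken from neonatal DBA/2J testes and grown in culture, so that their sperm was labelled as donor-derived DBA/2J sperm. The control F0 mice were DBA/2J males that received no transplant. All 6 were 16 to 18 months old when epididymal sperm was collected and cleaned by density centrifugation. The groups therefore differed in culture of the germline cells, in transplantation and in the host that carried the sperm, and these cannot be told apart; the labels state further that the SSCT F0 libraries started from less DNA than all others. Methylation was measured by reduced-representation bisulfite sequencing (RRBS), in which a restriction digest enriches CpG-rich fragments and the share of reads left unconverted by bisulfite gives the methylation level of a CpG. Sperm libraries of 20 offspring, aged 3 months, served only as an outside reference of typical levels. The control F1 group gave 5 of them, and the other 15 descended from transplanted males, with 5 each in the groups SSCT F2/P, SSCT F2/M and SSCT F1.

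Spermatogonial stem cells renew themselves in the testis and give rise to all later male germ cells. Their DNA methylation is laid down before birth and is largely kept through meiosis and sperm formation. Mature sperm is highly methylated outside CpG islands and nearly unmethylated at most promoters. At imprinted genes it carries methylation only at the loci marked by the father, whereas loci marked by the mother are bare, so these loci differ between sperm and somatic cells.

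Over 593154 CpGs shared by SSCT F0 replicates 1 and 2 and the controls, mean methylation was 16.8% in replicate 1 and 15.7% in replicate 2. Control F0 had 16.6% to 17.1%, so replicate 1 lay among the controls and replicate 2 below them. Of 28260 windows of 1000 bp with at least 5 measured CpG positions, 299 to 360 differed from the controls by over 25 percentage points (points) in the same direction in both mice. The number depended on the control mice chosen. Promoters of maternally methylated imprinted genes, each mouse at its own CpGs, had a mean level of 2.13% and 3.00% in replicates 1 and 2. Control F0 had between 1.48% and 2.64%. At CpGs shared by these 5 mice, the median over 14 such genes was 3.89% in SSCT F0 and 1.46% in control F0. A window in Pear1, a platelet receptor gene, had 6.61% and 0% methylation against 86.7% to 93.8% in the controls, and a window within Kank4, a kidney ankyrin repeat gene, had 93.9% and 100% against 3.11% to 9.22%. SSCT F0 replicate 3 covered few CpGs and was low across methylated windows in general, with a mean of 58.7% against 94.0% to 95.1% in the controls. Replicates 1 and 2 had 90.5% and 83.0% in the same windows, also below all controls.

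The promoters below are shown because their measured CpGs carried some of the largest differences. Each stretch runs from 250 bases before to 50 bases after the gene start of the RefSeq model (GRCm38.p6), in the direction of the gene, and capitals mark the CpGs that were measured in SSCT F0 replicates 1 and 2 and in all 3 control F0 mice.
Arhgef10l, chr4:140665838-140666137, minus strand, 4 of 7 CpGs measured: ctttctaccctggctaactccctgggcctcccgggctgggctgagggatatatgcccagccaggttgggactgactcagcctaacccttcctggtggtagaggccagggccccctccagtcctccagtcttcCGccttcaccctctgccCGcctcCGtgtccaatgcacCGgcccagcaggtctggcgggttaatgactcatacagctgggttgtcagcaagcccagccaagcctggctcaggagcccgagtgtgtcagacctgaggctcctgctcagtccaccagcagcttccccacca
Gm34360, chr14:45664386-45664685, minus strand, 6 of 8 CpGs measured: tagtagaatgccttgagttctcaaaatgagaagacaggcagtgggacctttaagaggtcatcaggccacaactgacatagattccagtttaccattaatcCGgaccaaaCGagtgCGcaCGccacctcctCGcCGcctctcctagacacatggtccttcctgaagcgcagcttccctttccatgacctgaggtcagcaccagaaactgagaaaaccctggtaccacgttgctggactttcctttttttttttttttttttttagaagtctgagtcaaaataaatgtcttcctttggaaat
Gm52830, chr5:129103698-129103997, minus strand, 6 of 13 CpGs measured: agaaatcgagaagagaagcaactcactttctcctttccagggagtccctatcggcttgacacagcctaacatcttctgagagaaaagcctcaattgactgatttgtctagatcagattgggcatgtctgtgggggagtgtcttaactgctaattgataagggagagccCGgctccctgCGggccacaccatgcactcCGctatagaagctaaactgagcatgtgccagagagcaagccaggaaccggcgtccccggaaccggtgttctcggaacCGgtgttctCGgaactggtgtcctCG
Dnajc5g, chr5:31108069-31108368, plus strand, 5 of 15 CpGs measured: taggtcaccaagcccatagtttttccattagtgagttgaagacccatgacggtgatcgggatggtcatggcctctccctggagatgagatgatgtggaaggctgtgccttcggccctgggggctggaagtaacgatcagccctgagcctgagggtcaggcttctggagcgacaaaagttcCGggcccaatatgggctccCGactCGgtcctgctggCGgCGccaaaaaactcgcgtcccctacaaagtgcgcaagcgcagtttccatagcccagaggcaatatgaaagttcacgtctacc
Over the capitals of Arhgef10l, a gene for a guanine nucleotide exchange factor, the mean level was 67.2% and 0% in SSCT F0 replicates 1 and 2 and 100%, 93.2% and 100% in control F0. Over those of Gm34360, a predicted gene, it was 73.5% and 99.0% against 0%, 6.58% and 0%. Over those of Gm52830, also predicted, it was 93.9% and 100% against 10.2%, 20.2% and 14.4%. Over those of Dnajc5g, of the DnaJ chaperone family, it was 25% and 37.7% against 0% in all 3 controls. In each stretch shown, both transplanted mice lay on the same side of all controls. Promoters were named only where the groups did not overlap, so this agreement largely follows from the choice. It did not hold in the stretches of 2 other named promoters. Over the measured CpGs of Kcne4, replicates 1 and 2 had 100% and 0% against 93.7% to 96.8%. Over those of Gm42008 they had 98% and 53.9% against 44.2% to 63.1%.

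Before the comparisons, the libraries themselves differed. CpG positions on autosomes with at least 10 reads numbered 1498160, 948305 and 172862 in SSCT F0 replicates 1, 2 and 3, against 1493897 to 1710244 in control F0, whereas the total of reads at CpG positions was of the same order, between 51386036 and 87707577. In replicates 2 and 3 a like number of reads thus fell on fewer positions, and median coverage of the positions kept was 26, 41 and 392 reads in SSCT F0 against 25 to 38 in control F0. The control DNA spiked into each sample took 0.0915%, 1.39% and 5.74% of the reads in SSCT F0 replicates 1, 2 and 3, but 0.0439% to 0.0523% in control F0 and 0.0397% to 0.0602% in the 20 offspring. The 3 SSCT F0 libraries were all above every other library (two-sided exact permutation test against control F0, p = 0.1; 3 against 3 mice cannot give less). Bisulfite conversion was read on the same control DNA. Its unmethylated part read as 0.890%, 0.983% and 1.26% methylated in SSCT F0 replicates 1, 2 and 3 and as 0.633% to 0.936% in control F0, which overlapped (exact permutation test, p = 0.2), with offspring at 0.542% to 1.22%.

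A further measure was the spread of levels at partly methylated CpGs. CpGs with 30% to 70% methylation in the pooled offspring reads were thinned to 10 reads each, and the share of them that was read as exactly 0% or 100% was taken in each founder. It was 45.6%, 81.8% and 96.2% in SSCT F0 replicates 1, 2 and 3, and 21.9% to 25% in control F0, where the 20 offspring gave 17.9% to 27.6%. The groups did not overlap (exact permutation test, p = 0.1), and the share rose with the share of spiked control DNA in the order of the SSCT F0 mice. The strands of a CpG are read from separate molecules and told the same libraries apart. Among CpGs with at least 50% methylation on 1 strand, the strands lay within 25 points of each other at 76.2%, 38.8% and 8.65% in SSCT F0 replicates 1, 2 and 3, against 80.6% to 81.5% in control F0. Averaged over all CpGs, most of them unmethylated, the strands differed by 5.80, 5.63 and 4.87 points in SSCT F0 and by 5.59 to 6.13 points in control F0, which overlapped (exact permutation test, p = 0.3). Of the SSCT F0 mice, replicate 1 was nearest to the controls on these shares and replicate 3 farthest from them, but the share of replicate 1 read at 0% or 100% still lay above all controls and offspring. Results are given below with and without replicate 3. The part of these library differences in the results was not tested.

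**Figure D1:**
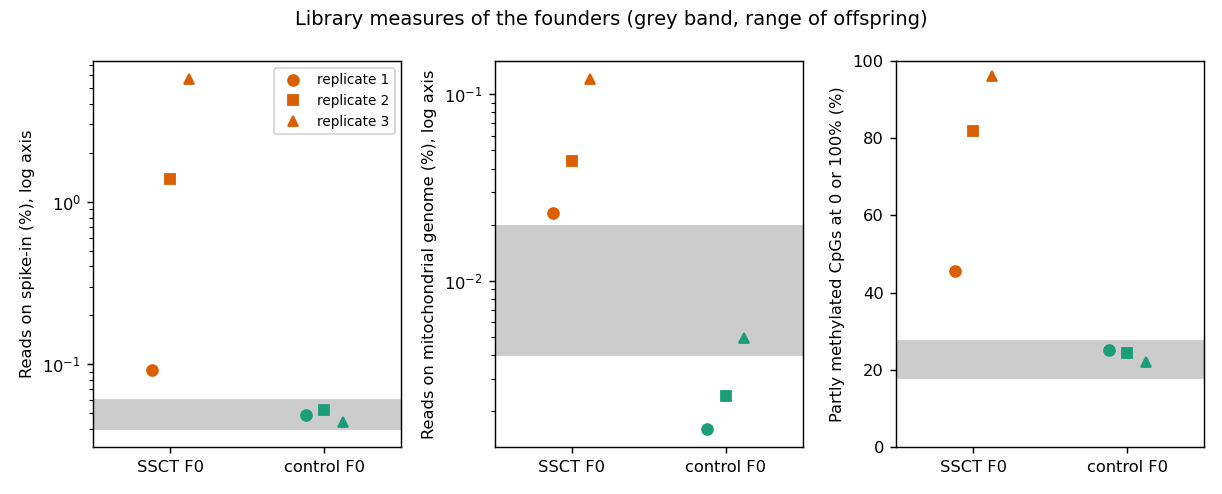
The share of reads on the spiked control DNA (left, log axis), the share of reads on the mitochondrial genome (middle, log axis) and the share of partly methylated CpGs read at 0% or 100% after thinning to 10 reads (right) are plotted for each founder, with the range of the 20 offspring libraries in grey. On the left and right, SSCT F0 replicate 3 is highest, at 5.74% and 96.2%, and all control F0 mice lie within the offspring range.

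Methylation of the founders was first set against the level of the same CpG in the offspring. At CpGs with under 2% methylation in the offspring, SSCT F0 replicates 1, 2 and 3 had 1.05%, 1.14% and 1.19%, and control F0 had 0.893% to 0.913%. At CpGs with at least 98%, SSCT F0 replicates 1, 2 and 3 had 97.0%, 92.7% and 68.8%, and control F0 had 97.9% to 98.1%. At CpGs with 50% to 70%, they had 62.3%, 45.3% and 25.3%, against 54.7% to 62.7%. Replicate 1 stayed close to the controls along the whole range, whereas replicates 2 and 3 were below all controls at every level from 10% upwards.

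**Figure D2:**
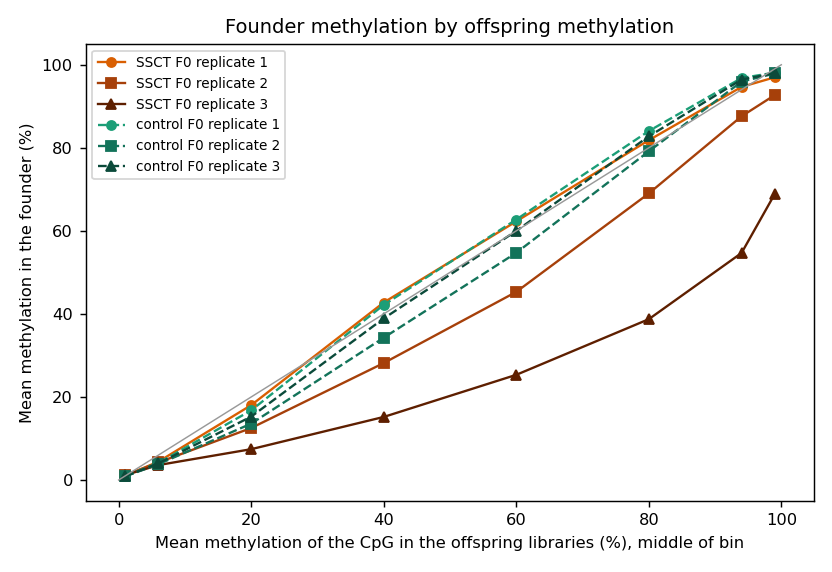
Mean methylation of each founder (percent, vertical axis) is plotted against the mean methylation of the CpGs in the offspring libraries (percent, middle of each bin, horizontal axis), each mouse at its own CpGs with at least 10 reads; the grey line marks equal levels. Control F0 mice and SSCT F0 replicate 1 stay near the grey line, and SSCT F0 replicate 3 falls to 25.3% where the offspring have 50% to 70%.

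Windows of 1000 bp gave the same order. Over the 1500 windows that were covered in all 6 mice and had at least 80% methylation in the offspring, the level was 90.5%, 83.0% and 58.7% in SSCT F0 replicates 1, 2 and 3, and 95.1%, 94.0% and 94.9% in control F0. All 3 SSCT F0 mice were below the controls, with group means of 77.4% ± 16.6 and 94.6% ± 0.566 (SD, n = 3; exact permutation test, p = 0.1). Without replicate 3, 39027 such windows could be used, with 94.8% and 89.8% against 96.0% to 96.5%, so the difference shrank from -17.2 to -3.95 points while the groups still did not overlap (exact permutation test, p = 0.2; 2 against 3 mice cannot give less). Over the 1602 windows with levels between 20% and 80% in the offspring, SSCT F0 had 40.7%, 31.8% and 16.6% and control F0 39.3% to 44.2%, which overlapped (exact permutation test, p = 0.2). Over the 16131 windows with at most 20%, SSCT F0 had 3.96%, 3.59% and 2.90% against 3.28% to 3.50% (exact permutation test, p = 0.8), and the difference of 0.0854 points became -0.153 points without replicate 1. Since unmethylated windows prevail in RRBS, the mean over the 81394 CpGs shared by all 6 mice moved little, from 6.54% ± 0.144 in control F0 to 5.71% ± 1.13 in SSCT F0 (SD, n = 3; exact permutation test, p = 0.3).

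Differences between single mice were counted in pairs, so that a sparse library set the positions of its own pairs only. Among 182731 to 190827 windows per pair, SSCT F0 replicate 1 differed from the control F0 mice by over 25 points at 9.91% to 10.4% of windows. Replicate 2 differed from them at 15.5% to 16.8% and replicate 3 at 15.6% to 17.3%. The 3 pairs of control mice differed at 6.37% to 7.15% of windows, and the 190 pairs of offspring libraries at 5.64% to 7.36%. Every pair of an SSCT F0 mouse with a control mouse was therefore above every pair of controls, by 7.6 points on average. The SSCT F0 mice differed from each other about as often: replicates 1 and 2 at 13.9%, replicates 1 and 3 at 16.3% and replicates 2 and 3 at 12.8% of windows, beside a mean of 14.3% for the pairs with controls.

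Windows with at least 5 measured positions gave another order. There SSCT F0 replicate 1 differed from control mice at 4.27% to 4.47% of windows and replicate 2 at 4.39% to 5.08%, whereas pairs of controls differed at 1.40% to 1.95% and pairs of offspring at 1.22% to 1.81%. Replicate 3 differed from the controls at 1.71% to 1.86%, of the 9543 to 10673 windows it covered. This share does not make it like the controls. Pearson's r of levels across these windows was 0.579 to 0.603 between replicate 3 and the controls. It was 0.906 to 0.969 for replicates 1 and 2 with the controls, and 0.985 to 0.987 between controls. SSCT F0 replicates 1 and 2 differed from each other at 3.14%, less than either differed from any control mouse, which did not hold over all windows. Replicates 1 and 3 differed at 2.08% and replicates 2 and 3 at 1.85%, against 1.71% to 1.86% between replicate 3 and the controls. Pairs share libraries, so no test was made across them.

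**Figure D3:**
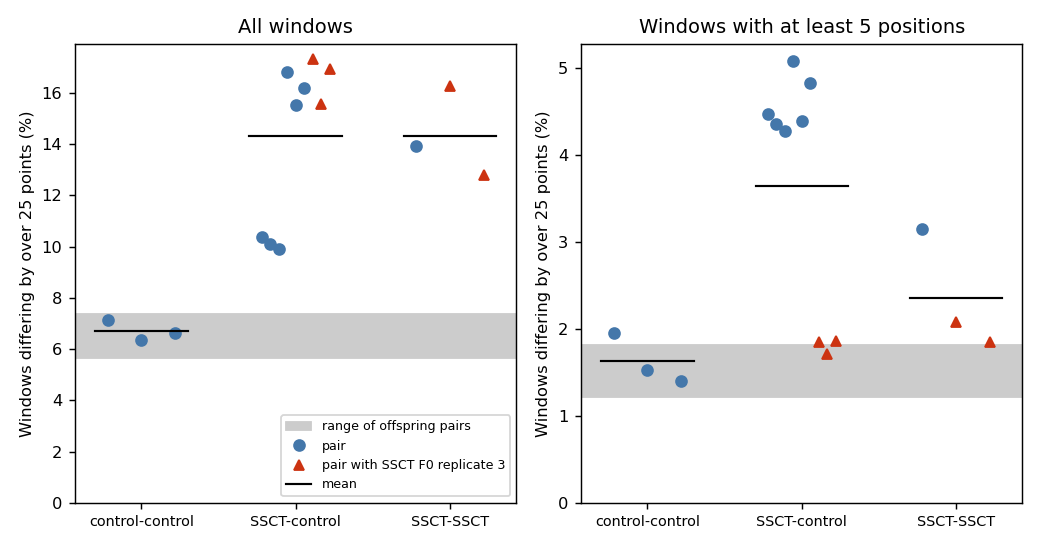
Each point is a pair of founder libraries, and its height is the percent of 1000 bp windows that differ by over 25 points, over all windows (left) and over windows with at least 5 positions (right); bars are means and the grey band is the range of 190 offspring pairs. On the right, the pairs of SSCT F0 replicates 1 and 2 with controls lie between 4.27% and 5.08%. Pairs with SSCT F0 replicate 3 lie between 1.71% and 2.08%, over the fewer windows that it covered.

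Whether the transplanted founders differed from the controls at the same loci was asked with differences that shared no mouse. For SSCT F0 replicates 1 and 2, each difference was taken to another control mouse, in 6 pairings, over the 28260 windows with at least 5 positions in these 5 mice. Pearson's r across windows was 0.390 to 0.435, a description only, since windows are not independent samples. In 337 to 388 windows both mice differed from their control by over 25 points, and in 299 to 360 of these, 87.9% to 95.2%, in the same direction. For replicates 1 and 3, r was 0.0197 to 0.0640 over 8132 windows, and 24 to 31 windows differed in both, 50.0% to 63.3% of them in the same direction. For replicates 2 and 3, r was 0.0551 to 0.0827 over 6630 windows, and 16 to 24 windows differed in both, 63.6% to 81.3% of them in the same direction. Over all windows, most of them with few positions, replicates 1 and 2 had r of 0.222 to 0.252 and the same direction at 74.3% to 78.7% of the windows that differed in both, of which there were 4138 to 4505 among 92129. Replicates 2 and 3 came to similar values there, with r of 0.222 to 0.239 and 73.1% to 75.4%, and replicates 1 and 3 to 0.0849 to 0.133 and 58.0% to 64.2%.

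The offspring libraries, of control and transplanted descent together, were then used in place of the control founders. They were split into sets of 10, and each mouse of a pair was set against the mean of another set, over 27898 windows. SSCT F0 replicates 1 and 2 were over 25 points from the offspring in the same direction at 348 to 365 windows, with r between 0.508 and 0.517. The 3 pairs of control F0 mice were so at 1 to 6 windows, with r between -0.0427 and 0.0579. The 6 pairs of these SSCT F0 mice with a control mouse were so at 10 to 36 windows. Singly, replicates 1 and 2 were over 25 points from the offspring at 581 and 956 windows, and the control mice at 91, 61 and 55. Of the shared windows, 120 to 123 were higher and 228 to 242 lower than in the offspring. The loci that differed in the transplanted founders were to this extent common to replicates 1 and 2. Several donor cell lines were cultured for the study, and the line that each mouse received is not given in the sources used here.

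**Figure D4:**
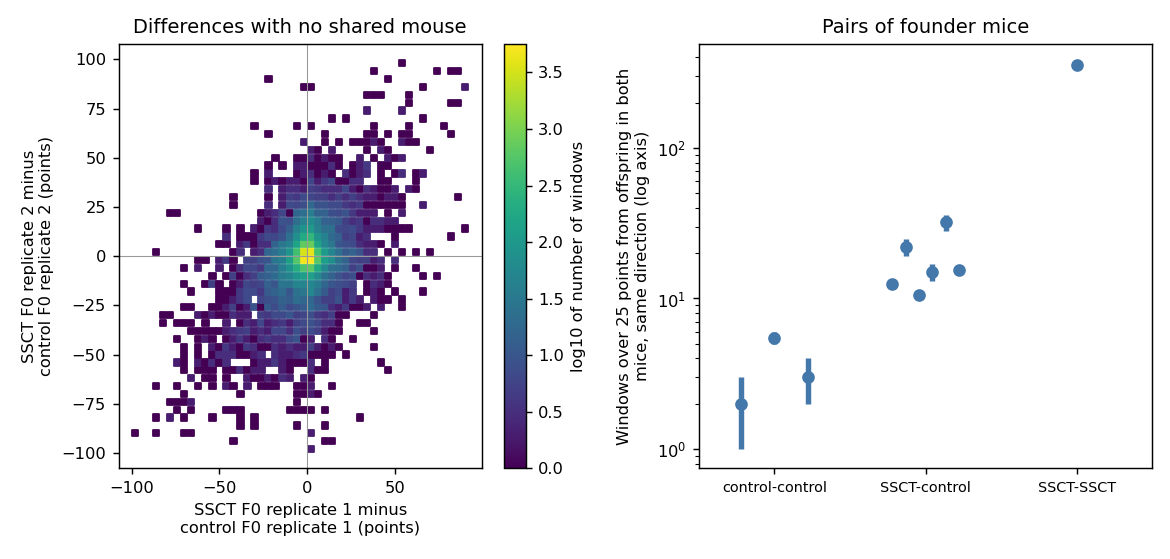
Left, the difference of SSCT F0 replicate 1 from control F0 replicate 1 (horizontal axis, percentage points) against that of SSCT F0 replicate 2 from control F0 replicate 2 (vertical axis), with colour for the log10 number of windows; right, the number of windows (log axis) over 25 points from the offspring in the same direction in both mice of a pair, bars spanning the assignments of offspring sets. The pair of SSCT F0 mice stands at 348 to 365 windows and the control pairs at 1 to 6.

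Differentially methylated CpGs (DMCs) and windows (DMRs) were then called at a q-value under 0.01 in a chi-square test of summed reads and a difference over 25 points. The test compares reads and ignores how mice of a group vary, so its calls describe these libraries. With all 6 mice, 4687 of 81394 CpGs (5.76%) were called, 2131 hypermethylated and 2556 hypomethylated in SSCT F0, and 1905 of 19279 windows (9.88%), 529 hypermethylated and 1376 hypomethylated. Of all windows tested, 10.7% had levels that did not overlap between the groups, and of the DMRs 28.2%. Without replicate 3, over the positions then covered, 34246 of 593154 CpGs (5.77%) and 9228 of 92129 windows (10.0%) were called, 2624 of these hypermethylated and 6604 hypomethylated. The balance of directions changed without replicate 2: then 5744 windows were hypermethylated and 6501 hypomethylated, and of CpGs 30195 against 23744, compared with 16732 against 17514 with it. Non-overlapping levels were found at 18.5% of all windows and 57.9% of the DMRs. At the positions of the 6-mouse comparison, leaving out replicate 3 gave 3576 CpGs, 2206 of them hypermethylated and 1370 hypomethylated, and 1168 windows, 494 and 674. With a test scaled by the spread between mice (F test), 0 windows passed the q-value in either comparison, while 436 of 19279 with 6 mice and 3063 of 92129 with 5 mice passed the difference at p under 0.05 before adjustment. limma, which also uses the spread between mice, called 1 window with 6 mice and 0 with 5, with 757 and 4469 at an unadjusted p under 0.05. On simulated data the F test with 5 mice, and limma once the spread of the real mice was added, called none of the changed windows. With so few mice, the low counts of the F test with 5 mice and of limma therefore decide nothing. What the F test with 6 mice called on simulated data is not given here, so its 0 windows are not read either way.

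Restricting windows to at least 5 positions removed most calls. With 6 mice 59 of 6254 (0.943%) were called, 28 hypermethylated and 31 hypomethylated, 18 of them without overlap, beside 11.5% of all such windows without overlap. With 5 mice 645 of 28260 (2.28%) were called, 224 hypermethylated and 421 hypomethylated, and 558 of them did not overlap, 86.5%, beside 24.3% of all. Of all 28260 windows, levels were reversed at 10: at 4, replicates 1 and 2 had at least 80% and all controls at most 20%, and at 6 the reverse.

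Calls depended on how methylated a window usually is. With 5 mice, 4463 of 12097 windows (36.9%) with partial methylation in the offspring were called, 1704 hypermethylated and 2759 hypomethylated. Of 39027 methylated windows 9.79% were called, 3657 hypomethylated and 163 hypermethylated, and of 40512 unmethylated windows 2.13%, 725 hypermethylated and 136 hypomethylated. The CpG-rich starts of genes were rarely involved. Of the windows tested with at least 5 positions, 51% lay within 1000 bp of a gene start, 35.2% elsewhere in genes and 13.8% outside genes, whereas of the hypermethylated windows 10.7%, 56.3% and 33.0% did so, and of the hypomethylated windows 6.65%, 55.6% and 37.8%. Called windows were spread over all autosomes, between 8.34% of the windows on chromosome 11 and 11.1% on chromosome 6, and 6219 of the hypomethylated and 2490 of the hypermethylated windows had no called neighbour of the same direction.

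The levels in the offspring placed these windows further. Of the called windows with at least 5 positions, 585 were also measured in at least 15 offspring libraries. In 387 of them (66.2%) both SSCT F0 replicates 1 and 2 lay outside the range of the offspring, and in 446 (76.2%) all 3 control F0 mice lay inside it. Over all 26965 windows so measured, both SSCT F0 mice lay outside at 5.33%, and all controls inside at 85.0%. Since the windows were called for the difference between these mice and the controls, the first of these values describes the calls and is no separate test.

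The 5 hypomethylated windows with the largest difference of group means, among DMRs with at least 5 positions and no overlap, were these. In Pear1 (chr3:87764001-87765000, 3953 bp from its nearest start, 5 positions), SSCT F0 replicates 1 and 2 had 6.61% and 0%, and control F0 had 93.8%, 91.2% and 86.7%. Between genes (chr9:123923001-123924000, 1148 bp from the predicted gene Gm51701, 8 positions), they had 1.72% and 0% against 99.3%, 89.0% and 73.1%, with offspring at 54.1% to 100%. In another stretch between genes (chr4:124241001-124242000, 10 positions), they had 7.58% and 0% against 93.6%, 80.2% and 83.0%. In these 3 windows the transplanted mice were nearly bare of methylation where no control was below 73.1%. At the start of the predicted gene Gm32696 (chr4:125313001-125314000, 7 positions), replicates 1 and 2 had 22.5% and 7.77% against 93.2%, 96.3% and 96.9%, and replicate 3 had 100%, on 2 positions. In Dlec1 (chr9:119120001-119121000, 17492 bp from its nearest start, 12 positions), a gene of cilia and flagella, they had 15.2% and 7.46% against 94.0%, 89.5% and 89.8%. The offspring had 82.6% to 95.3% in the Dlec1 window and 89.3% to 98% in the Pear1 window, near the control founders. SSCT F0 replicate 3 had 0% at Pear1, on 1 position, and did not cover the windows between genes or in Dlec1.

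The 5 hypermethylated windows had between 73.5% and 100% in SSCT F0 replicates 1 and 2. Between genes (chr17:27415001-27416000, 5 positions) replicates 1 and 2 had 100% and 100%, against 9.60%, 14.5% and 0%. In Kank4 (chr4:98778001-98779000, 7 positions) they had 93.9% and 100% against 9.22%, 7.03% and 3.11%. In Rassf3 (chr10:121435001-121436000, 10 positions), a gene of the Ras association family, replicate 1 had 96.2% and replicate 2 more (mean 98.04% ± 2.63, SD, n = 2), against 6.59%, 12.7% and 9.28%. These windows were chosen for a large difference without overlap, so a spread within groups that is small beside it largely follows from the choice. The highest of the offspring had 52.2% in the window between genes, 12.6% in Kank4 and 26.2% in Rassf3. In Hdac7 (chr15:97808001-97809000, 7 positions), which encodes a class IIa histone deacetylase, they had 89.5% and 100% against 6.42%, 7.45% and 7.62%, with offspring up to 20.1%. At the start of Gm34360 (chr14:45664001-45665000, 6 positions) they had 73.5% and 99.0% against 0%, 6.56% and 0%, but 18 offspring covered this window and ranged from 0% to 100%. All 10 windows were called when any 1 library was left out, but without replicate 2, at the positions then covered, the summed difference went from 95.9 to 38.5 points between genes on chromosome 17 and from 91.9 to 41.3 points at Gm34360.

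**Figure D5:**
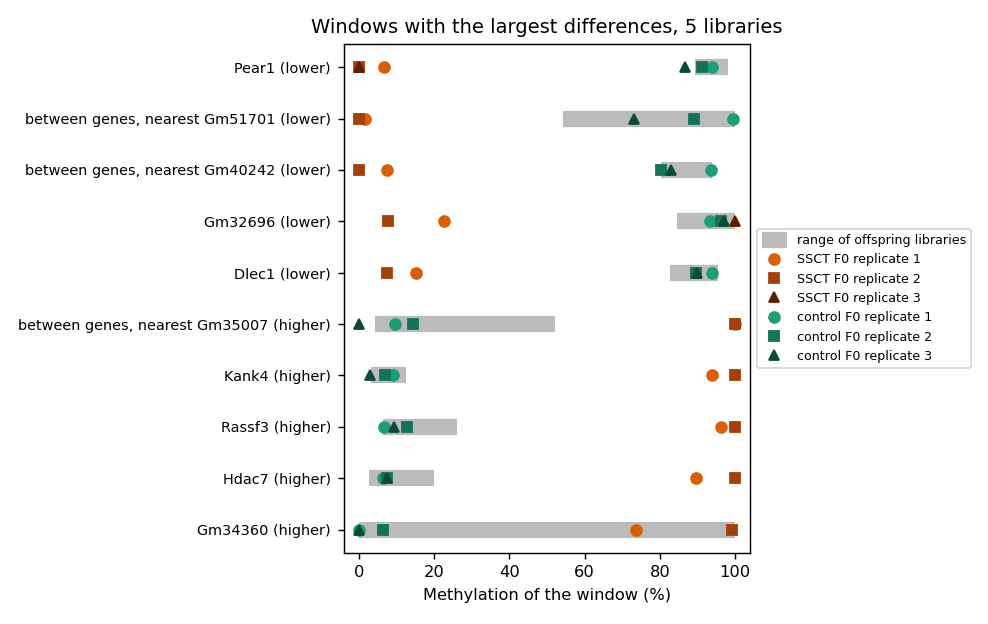
Methylation (percent, horizontal axis) of the 5 hypomethylated and 5 hypermethylated windows is plotted for each founder that covered them (points) with the range of the offspring libraries (grey bars). SSCT F0 replicates 1 and 2 lie at most at 22.5% in the upper 5 windows and at least at 73.5% in the lower 5, and replicate 3 covered Pear1 at 0% and Gm32696 at 100%.

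With replicate 3 included, only positions covered by its library could enter. The hypomethylated windows were led by Morn3 (chr5:123046001-123047000, 5 positions), a gene for a MORN repeat protein of the testis, with 5.92%, 0.629% and 0.0512% in SSCT F0 and 76.9%, 50.2% and 57.8% in control F0. In a window far from genes (chr3:5860001-5861000, 6 positions) the levels were 34.5%, 13.5% and 0.05% against 78.5%, 70.2% and 67.9%. In Pxn (chr5:115500001-115501000, 6 positions), which encodes the focal adhesion adaptor paxillin, they were 11.3%, 8.71% and 0% against 56.5%, 56.6% and 46.2%. All 3 SSCT F0 mice were low in each, and each stayed a DMR without replicate 3. In Arhgap25 (chr6:87513001-87514000, 5 positions), for a GTPase-activating protein, they were 5.32%, 0% and 0.0424% against 88.8%, 28.2% and 22%, with control replicate 1 far above the other controls. The offspring had 19.5% to 70.5% there, below control replicate 1 and above all SSCT F0 mice. In Rn18s-rs5, an 18S ribosomal RNA related sequence (chr17:39846001-39847000, 15 positions), the levels were 49.8%, 28.5% and 13.8% against 69.7%, 68.1% and 73.4%. The offspring ranged from 20.3% to 74.2% in this window, a range that held all controls and SSCT F0 replicates 1 and 2. Its summed difference was -49.4 points with and -30.4 points without replicate 3. Ribosomal RNA genes occur in many near-identical copies, so this level is uncertain, and when very deep positions were kept the summed difference at Rn18s-rs5 was -6.24 and at the window far from genes -4.26 points, neither called.

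Of hypermethylated windows only 3 met the rule with 6 mice. In Bdnf (chr2:109677001-109678000, 11 positions), a neurotrophin gene, SSCT F0 had 5.96%, 8.47% and 41.6% against 1.62%, 2.64% and 2.29%. In the window of Nrn1, for a neuronal surface protein, and Gm30177 (chr13:36726001-36727000, 12 positions) they had 2.07%, 1.84% and 47.7% against 0%, 1.52% and 1.49%. At Sox11, a transcription factor gene (chr12:27339001-27340000, 10 positions), they had 2.5%, 3.86% and 39.9% against 0% in each control. Replicates 1 and 2 were above the controls too, which the rule required, but by far less than replicate 3. The offspring reached 5.69%, 3.23% and 6.20% in the 3 windows. At Nrn1 and Sox11 replicates 1 and 2 thus lay within the offspring range. Without replicate 3 the summed differences were 1.34, 0.256 and 2.21 points and none of the 3 was called. The window of Nrn1 was also not called without replicate 2 (22.4 points) or at a minimum of 20 reads (0.113 points). After thinning to 10 reads per position none of the 3 was called, with 11.5, 8.61 and 15.7 points.

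Promoters, taken as the CpGs within 1000 bp of a RefSeq gene start, were compared without replicate 3. Of 14186 promoters, 318 (2.24%) were called, 88 hypermethylated (0.620%) and 230 hypomethylated (1.62%), and 193 of them had no overlap between the mice, as had 3157 of all promoters (22.3%). Without replicate 2, 180 were hypermethylated and 205 hypomethylated. The median promoter had 1.72% in SSCT F0 and 1.86% in control F0, with a median difference of -0.172 points. The F test called 0 (113 before adjustment, at p under 0.05 and with that difference), and limma called 0 (183 at p under 0.05 before adjustment). The limit of both tests given above for windows holds here too.

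Of hypomethylated promoters with at least 5 positions and no overlap, the 10 with the largest difference are given. They included Gm32696 and Morn3, described above as windows. Arhgef10l had 73.1% and 12.7% in SSCT F0 replicates 1 and 2 against 100%, 95.4% and 100%, over 5 positions. Rph3a, for the synaptic vesicle protein rabphilin, had 28.3% and 5.43% against 81.3%, 49.3% and 56.3%. Kcne4, for a potassium channel subunit, had 42.3% and 0% against 63.9%, 69.2% and 59.5%. Both SSCT F0 mice were below all controls, but replicate 2 was lower in each of these 3, and without it the differences of Arhgef10l and Kcne4 were -20.9 and -14.8 points and no longer called. Rcan2, for a calcineurin regulator, had 41.0% and 18.5% against 59.9% to 77.7% and was likewise lost without replicate 2. The other members were the predicted genes Gm10747, Gm42356, Gm32742 and Gm36601, with differences of -50.9, -44.6, -42.0 and -38.4 points. Of these, Gm42356 and Gm32742 were not called without replicate 2, and the summed difference at Gm10747 went from -53.4 to -29.1 points. At a minimum of 20 reads Kcne4 differed by 0 points, and Gm36601 had 66.2% in replicate 3, above all controls.

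The 10 largest hypermethylated promoters held 7 predicted genes. Gm34360 and Gm52830 led with differences of 84.1 and 83.0 points, and Gm36116 had 97.9% and 99.8% against 37.5% to 52.0%. Gm7967 had 36.4% and 35.5% against 4.18%, 4.49% and 2.87%, with replicates 1 and 2 closer to each other than at the other 9. Of the named genes, Slc44a4, a choline transporter-like gene, had 58.3% and 22.5% against 1.60%, 8.27% and 9.24%, and was not called without replicate 1. Rnf223, a RING finger gene, had 98% and 100% against 76.5%, 57.1% and 67.9%. Dnajc5g had 25% and 37.7% against 0% in each control, and was not called without replicate 2. Gm36543, Gm42008 and Gm46056 differed by 40.4, 32.7 and 31.6 points, the last 2 not called without replicate 1. Without replicate 2 the summed difference at Gm42008 went from 28.9 to 45.8 points, and replicate 3 had 20.6% there, below all controls. At a minimum of 20 reads Gm7967 and Gm46056 fell short of the threshold, with 19.5 and 19.7 points.

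Promoters of gene lists were counted beside the 2.24% called over all promoters, at which lists this short may hold no call. Of 17 germline genes tested (such as those of meiosis and the piRNA pathway), of 9 spermatogonial stem cell genes, of 9 genes for methylation enzymes and of 22 Hox genes, 0 promoters were called, and their median differences were -0.775, -0.359, 0.556 and 0.0473 points, beside -0.172 over all promoters. Housekeeping genes gave 0 of 6 and a median of 0.0942 points. Single members of lists for spermiogenesis and epididymis were measured, 1 gene each, with 0 calls. Of 3 Sertoli and Leydig cell genes 0 were called, and of leukocyte genes the 1 that was measured, Vav1, had 0% and 0% against 11.1%, 35.3% and 33.3% on 2 positions and was called. Of 10 pluripotency genes, Pou5f1, which encodes the transcription factor Oct4, was called on 1 position, with 90.1% and 2.86% against 100% in each control. Replicate 2 alone was low. Of 9 genes that the study named in exons for founder and F1 sperm, 5 were tested here at their promoters, which is another region. C130012C08Rik, BC035947, Slc13a4 and Capn11 were not tested, although the study named Slc13a4 at its promoter too. None of the tested genes was called: Gpx8 had 2.11% and 9.42% against 9.59% to 11.4%, Tal2 1.55% and 0% against 1.57% to 2.47%, Tet1 2.66% and 0% against 0% to 0.630%, Pou2f2 2.04% and 0% against 0% to 0.658%, and Mars1 1.88% and 1.7% against 2.45% to 2.69%. The study chose these genes on calls that included these samples.

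Imprinted genes served to tell whether sperm kept the parental pattern of methylation. Of promoters methylated by the mother, 16 loci were unmethylated in offspring sperm, at 20% or less, of which 15, 14 and 8 were covered in SSCT F0 replicates 1, 2 and 3. The mean over loci was 2.13%, 3.00% and 5.59% in SSCT F0 and 2.64%, 1.48% and 2.59% in control F0, which overlapped (exact permutation test, p = 0.4), beside 0.966% to 3.19% in the offspring. Of the covered loci, 4, 4 and 3 were above all controls in replicates 1, 2 and 3. The same share over all promoters was not taken for single mice, so these counts alone tell little. A level over 10% was found at 0, 1 and 1 loci in replicates 1, 2 and 3, as at 1 in control replicate 3 (Slc38a4, 14.5%). In SSCT F0 these were Nap1l5, a nucleosome assembly protein-like gene, with 21.5% in replicate 2 (controls 0% to 2.98%), and Peg3, a zinc finger gene expressed from the paternal copy, with 33.3% in replicate 3 (controls 0% to 6.4%). In replicate 1 the highest were Snrpn, of the Prader-Willi region, with 6.4% against 0% to 3.51%, and Zrsr1, with 4.84% against 1.28% to 3.20%. Zrsr1 had 3.43% and 5.02% in replicates 2 and 3. Plagl1 had 3.87%, 2.19% and 6.27% against 1.91% to 5.64%, and Magel2 had 3.24%, 6.15% and 0.0864% against 2.59% to 3.16%. Grb10, with the most CpGs, had 0.620%, 0.406% and 0.0303% against 1.16% to 1.99%. Below 4% in every SSCT F0 mouse that covered them, and not above all controls, were Kcnq1ot1, Mest at both starts, Nnat, Airn and Slc38a4; Mcts2 had 3.25%, 1.40% and 0% and Inpp5f 1.5%, 2.33% and 0%. Ndn was not covered in SSCT F0. These levels were read at each mouse's own CpGs. Among the promoters tested above, at CpGs shared without replicate 3, 0 of 14 maternally methylated genes were called, beside 2.24% of all promoters. This count alone tells little, and Peg3 and Usp29 enter it with the same values. Peg3 had 3.65% and 11.7% in replicates 1 and 2 against 0% to 0.780%. Magel2, Inpp5f and Zrsr1 were also above all controls in both mice, and Grb10 was below all controls in both. Of all promoters, 22.3% had no overlap between the mice in one direction or the other. The 14 genes had a median difference of 2.19 points, beside -0.172 over all promoters. Of the paternal list, 0 of 3 genes were called, with a median difference of 0.331 points. Their methylated regions lie more than 1000 bp from the gene starts, so the promoters tested here tell nothing about paternal methylation.

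Of loci methylated by the father, the region before Meg3 (chr12:109524996-109530996) had 92.8% in SSCT F0 replicate 1 and 98.2%, 99.5% and 99.2% in control F0, and the region before Zdbf2 (chr1:63182358-63192358) had 100% against 96.6%, 77.3% and 87.6%. SSCT F0 replicates 2 and 3 covered neither, and Rasgrf1 was covered only in control replicates 1 and 3, with 98.2% and 97.3%. Paternal methylation could thus be read in 1 transplanted mouse only, with a mean of 96.4% against 88.4% to 97.7%, and no comparison of groups was possible. The loci behind these means differed, since only control replicates 1 and 3 included Rasgrf1. At Meg3, SSCT F0 replicate 1 was below all controls and the lowest of the offspring (93.9%). At Zdbf2 it was above all controls and the highest of the offspring (98.9%).

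CpGs without methylation inside methylated stretches were looked at last, since a strain that lacks a CpG of the reference reads as unmethylated there. The 1029 CpG positions used had no methylated read in at least 15 offspring libraries with at least 10 reads there. No offspring library of that coverage was above 2%, although neighbouring CpGs were methylated. Control F0 mice had a mean of 0.0585%, 0.252% and 0.126% there, over 885 to 945 positions. SSCT F0 replicates 1 and 2 had 2.99% and 8.37%, over 751 and 239 positions, and replicate 3 had 0% on 10 positions. Levels over 10% were found at 71 (9.45%) and 26 (10.9%) of the positions in replicates 1 and 2, and at 2, 9 and 4 positions (0.225%, 1.02% and 0.423%) in the controls. Replicates 1 and 2 were thus above all controls, but with replicate 3 the groups overlapped (exact permutation test, p = 0.4; without it p = 0.2). The part of recipient DNA in these values was not tested. On the X chromosome the mean over 5348 CpGs was 21.7% and 20.8% in SSCT F0 replicates 1 and 2 and 20.6% to 21.3% in control F0, which overlapped.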

How the data were processed

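RRBS libraries of sperm from 3 SSCT F0 and 3 control F0 mice were compared, and those of 20 offspring gave reference levels. For each library the authors deposited, per CpG position and strand, the coverage as a raw read count and the methylated fraction between 0 and 1. Their multiplied values were whole numbers at all positions (within 0.01 reads up to a coverage of 1000, in proportion above), so methylated reads were recovered. According to the submitters' processing notes, Trim Galore (0.4.1), Bismark (0.20.0) and methylKit (1.7.0) were used with the GRCm38/mm10 build. Removal of PCR duplicates is not given in the sources used here, so coverage counts reads, not molecules.

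Autosomal positions with at least 10 reads in each library compared were kept, without the 0.1% deepest of each library, and summed over 1000 bp windows or within 1000 bp of RefSeq gene starts (GRCm38.p6 table; 25748 genes, 13506 of them tested). A chi-square likelihood-ratio test per feature was run, with Benjamini-Hochberg adjustment. A q under 0.01 and a read-weighted difference over 25 points, thresholds taken from the study's methods, made a call. The test and the adjustment were chosen here. This test treats reads as independent. Single values per mouse were compared by exact permutation tests over the mice (3 against 3 allow no p under 0.1, and 2 against 3 none under 0.2). Percentages of windows are shares of summed reads, and levels by class are means over windows or CpGs. The median coverage of the positions kept was 25 to 41 reads in all founders but SSCT F0 replicate 3. Alternatives were an F test, a block, limma (3.58.1, pseudocount 1), other coverage limits, thinning and leaving out libraries. Tests were tried on simulated data, where the F test with 5 mice, and limma once the spread of the real mice was added, called none of the changed windows. Computation used Python (3.11.15), scipy (1.17.1) and R (4.3.3).

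Members, lists and rules were chosen with earlier results of these data known. Named windows and promoters were called, had at least 5 positions and no overlap, and were the 5 (windows) or 10 (promoters) largest per direction. At several imprinted genes only the start that was unmethylated (or, for paternal loci, methylated) in the offspring was used, a choice made after seeing the offspring levels. H19 did not pass it, and genes missing from the promoter table were not analysed here. No genome sequence was used.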

Additional observations from a re-analysis of the deposited data

Results flagged for a closer look

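Reads on spiked control DNA and on the mitochondrial genome were above every control founder in all 3 SSCT F0 mice, and positions not covered in the offspring in 2 of them. The spiked control DNA took 0.0915%, 1.39% and 5.74% of the reads in replicates 1, 2 and 3, where the highest control F0 mouse had 0.0523%. The mitochondrial genome took 0.0230%, 0.0436% and 0.121% of the reads, where the highest control had 0.00493% and the highest of the 20 offspring 0.0197%. Positions that no offspring library covered made up 1.72% of the CpGs kept in replicate 2 and 2.70% in replicate 3, where the highest control had 0.512%, and 0.317% in replicate 1. What part these had in the differences of methylation was not tested.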

How the results depend on the processing

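Counts of calls moved with the setting, and differences of single values between the groups kept their sign under all alternatives run except one: the level of windows unmethylated in the offspring went from 0.0854 to -0.153 points without SSCT F0 replicate 1 (range of omissions -0.153 to 0.431). For 6 mice, DMCs and DMRs numbered 4687 and 1905. They were 2932 DMCs at 20 reads, 9773 and 3891 above 10 points, and 2871 and 1186 after thinning to 10 reads. DMRs were 330 with at least 3 positions and 59 with at least 5. For SSCT F0 replicates 1 and 2, main counts were 34246 and 9228. They were 17746 and 5601 at 20 reads, 78279 and 20496 above 10 points, 17768 DMCs after thinning, 2256 and 645 DMRs with at least 3 and 5 positions, and 3576 and 1168 at positions covered in replicate 3. Promoters numbered 318, 204 at 20 reads and 836 above 10 points. The F test gave 0 in all 5 comparisons, and limma 1, 0 and 0 for 6-mouse DMRs, 5-mouse DMRs and promoters (757, 4469 and 183 at an unadjusted p under 0.05). In simulated data the F test with 5 mice, and limma with the spread of the real mice, also missed all changed windows. Fewer positions, fewer reads or the term for spread are part of these settings; the cause was not tested further.

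Leaving out 1 library each gave 5069 to 34246 DMCs and 1988 to 9228 DMRs (6 mice), 38243 to 53939 and 10033 to 14395 (5 mice) and 328 to 504 promoters, the positions changing with the library; the upper ends came without replicate 3 (6 mice), without SSCT F0 replicate 2 (53939) and without SSCT F0 replicate 1 (14395 and 504, with 52026 DMCs). With 6 mice, 7562 DMCs and 3254 DMRs were called without SSCT F0 replicate 2. The differences ranged from -24.1 to -3.95 points for methylated windows and from 39.9 to 65.2 points for CpGs read at 0% or 100%, and the pair result from 6.45 to 9.69 points. Replicate numbers did not pair the mice (r of deviations 0.0221, -0.0187 and -0.00838); with the replicate block 4504 and 1845 (6 mice), 32917 and 9015 (5 mice) and 313 promoters were called. The paternal imprinted level had no value without SSCT F0 replicate 1, the only transplanted mouse that covered these loci. Thinning of calls to 10 reads, windows of at least 5 positions and the positions of replicate 3 were chosen after seeing the data. Of named windows 5 of 8 (6 mice) and 10 of 10 (5 mice), and of promoters 11 of 20, stayed called in every omission.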

Other observations

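Each founder was also set against pairs of control mice at windows with at least 5 positions. SSCT F0 replicate 1 was over 25 points from the mean of its control pair at 3.72% of windows, 2.18% higher and 1.54% lower. Replicate 2 was so at 4.17%, 1.33% higher and 2.84% lower, and replicate 3 at 1.63%, 0.711% higher and 0.916% lower. Control mice set against the other pair of controls were so at 1.13%, 1.01% and 0.706%. Replicate 1 thus had more windows above than below them, and replicates 2 and 3 the reverse.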
